A study of Mus musculus with 5 samples.

Results

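The miR-19 and miR-25/92 seed families were examined in the hippocampus of mice in which human BDNF, the gene of brain-derived neurotrophic factor, was knocked in. MicroRNAs (miRNAs) are short RNAs that direct a silencing complex to messenger RNAs, mainly through bases 2 to 8, the seed. The members were chosen by name alone, as the array entries miR-19a, miR-19b, miR-25, miR-32, miR-92, miR-92a, miR-92b and miR-363 with or without an arm ending and without the starred strands. This gave 7 of the 569 mouse miRNAs on the array, since no entry is named miR-92 alone. The study compared Met/Met with Val/Val mice of strain 129/Sv at 8 weeks, which are homozygous for methionine or for valine at the variant site of the human BDNF prodomain, so that both genotypes carry the knock-in. Each of 5 arrays, labelled as biological replicates 1 to 5, took hippocampal small RNA from a pair of mice, 1 of each genotype, with Cy3 on the Met/Met and Cy5 on the Val/Val RNA. Dyes were never exchanged, so dye and genotype cannot be told apart. The tables call their intensity columns Test and Cntrl and do not say which genotype either holds, so every log2 ratio below is Test over Cntrl and its direction between genotypes is not settled.

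Most members are encoded in polycistronic clusters. The mir-17-92 cluster, known as an oncogene and as a regulator of cell proliferation, encodes miR-19a, miR-19b and miR-92a, and its X-linked paralog mir-106a-363 encodes miR-19b, miR-92a and miR-363. The mir-106b-25 cluster encodes miR-25. MiR-92a is known for its action in endothelial cells, and miR-92b for its expression in neural progenitors.

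The mature sequences are shown because the shared seeds, in capitals, define the families, and because single bases outside the seed separate neighbours that a hybridisation probe has to tell apart. Each is the target printed in the deposited array tables, 5′ to 3′, and each equals a mature mouse miRNA of RefSeq (GRCm38.p6).
miR-19a: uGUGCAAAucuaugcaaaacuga
miR-19b: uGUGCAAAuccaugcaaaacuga
miR-25: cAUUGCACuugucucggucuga
miR-92a: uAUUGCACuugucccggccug
miR-92b: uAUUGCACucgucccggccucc
miR-32: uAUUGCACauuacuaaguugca
miR-363: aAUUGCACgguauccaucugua

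The seed of miR-19 occurs in 2 miRNAs of the array and that of miR-25/92 in 6, the sixth being miR-367, which the name rule leaves out. The seeds of the families are partly complementary to each other. The stretch GUGCAA of the miR-19 seed pairs with 6 consecutive bases of the miR-25/92 seed. Counted from 1 at the 5′ end, miR-19b differs from miR-19a only by U11C, an edit distance of 1, so signal of either may include the other. MiR-92b differs from miR-92a by U10C and G21C and by 1 further base at the 3′ end. MiR-92a differs from miR-25 by C1U, U14C and U18C and lacks the last base, an edit distance of 4. MiR-32 and miR-363 lie at an edit distance of 7 from their nearest array neighbours, miR-367 and miR-25. The targets of miR-92b, miR-92a and miR-25 consist of G and C to 63.6%, 57.1% and 50%, whereas those of miR-363, miR-19b, miR-19a and miR-32 do so to 40.9%, 39.1%, 34.8% and 31.8%.

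The matched RefSeq loci (GRCm38.p6) place mature miR-19a at chr14:115044048-115044070 on the plus strand. Mature miR-19b has copies at chr14:115044358-115044380 and, on the minus strand, at chrX:52741991-52742013. MiR-92a likewise has copies at chr14:115044476-115044496 and chrX:52741854-52741874, so its probe reads the sum of both clusters, as that of miR-19b does. The 6 hairpins of mir-17-92 cover 836 bases, and those of mir-106a-363 cover 875 bases. MiR-363 lies at chrX:52741697-52741718. MiR-25 lies at chr5:138165332-138165353, in a cluster of 3 hairpins that is within the span of Mcm7, which encodes a subunit of the replicative helicase. MiR-32 at chr4:56895272-56895293 lies within the span of Tmem245, and miR-92b at chr3:89227126-89227147 lies within no other annotated gene.

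Each miRNA was read by 6 spots per array, and the intensity of spots that carry no probe set the background. The empty spots of an array had a 95th percentile of 35.6 to 62.8 intensity units in Test and of 248 to 400 in Cntrl. Probes with mismatched or shifted targets, a measure of unspecific binding, had 95th percentiles of 77.8 to 209 in Test and 379 to 464 in Cntrl. A miRNA was tested if, on 3 or more arrays, either column exceeded that percentile of the empty spots, which held for 568 miRNAs and all 7 members. The same rule with the mismatch percentile defines a miRNA above the mismatch controls, which 318 miRNAs and 4 members were. All 6 of the 7 listed neuronal markers that are on the array (miR-124, miR-9, miR-128, miR-132, miR-138 and miR-218) lay above the mismatch controls, with a summed intensity of 152319 to 194907 in Test and 166660 to 194467 in Cntrl. Ratios of different arrays did not always run together. Over the 568 miRNAs, those of replicate 3 correlated with those of replicate 1 at r = -0.30 and with those of replicate 5 at r = -0.56, but with those of replicates 2 and 4 at r = 0.25 and 0.17. No sign of replicate 3 thus gave positive correlations with all other arrays. All arrays share 1 dye orientation, so the labels give no ground for turning an array. Values with the sign of replicate 3 turned, a choice made after seeing the data, are also given where that changes a direction. Fewer cells of a type and less of a miRNA per cell cannot be told apart in these bulk samples.

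The members differed in how far they stood above background. MiR-92a, miR-92b and miR-25 lay above the mismatch controls in both columns on all 5 arrays. MiR-92a read 7459, 8106, 3601, 3428 and 5589 in Test on replicates 1 to 5, and 5805, 6868, 5529, 3357 and 5740 in Cntrl. The ranges of its columns overlapped.

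MiR-92b read 8375, 9132, 5201, 5050 and 6640 in Test and 6997, 7971, 6740, 5167 and 7458 in Cntrl on replicates 1 to 5, and its columns overlapped as well. MiR-25 read 3783, 4316, 1998, 2145 and 1727 in Test and 4030, 4464, 3140, 2502 and 3346 in Cntrl. Its Test values were the lower of the pair on every array before normalization. So was the median over all miRNAs, at 63.9 to 186 in Test and 411 to 457 in Cntrl. MiR-19b was closer to background, at 290, 373, 183, 149 and 77.7 in Test and 582, 627, 430, 456 and 574 in Cntrl. It exceeded the mismatch controls in Cntrl on 5 arrays and in Test on 4, the exception being replicate 5.

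MiR-19a, miR-32 and miR-363 exceeded the mismatch controls in neither column on any array. In Test, miR-19a ranged from 37.8 to 71.0, miR-32 from 36.5 to 61.2 and miR-363 from 37.1 to 80.2. On replicate 5 all 3 lay below that percentile of the empty spots in Cntrl, and miR-32 did so in Test on replicate 1. Their ratios cannot be set apart from those of unspecific binding, and their size changed with the background step. The mean log2 ratios of miR-19a, miR-32 and miR-363 were -0.036, -0.088 and -0.024 in the reported fit. With a smaller constant of 16 added to both columns in that step, they were -0.040, -0.122 and -0.030. Without background correction they were -0.013, -0.046 and -0.0089.

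**Figure D1:**
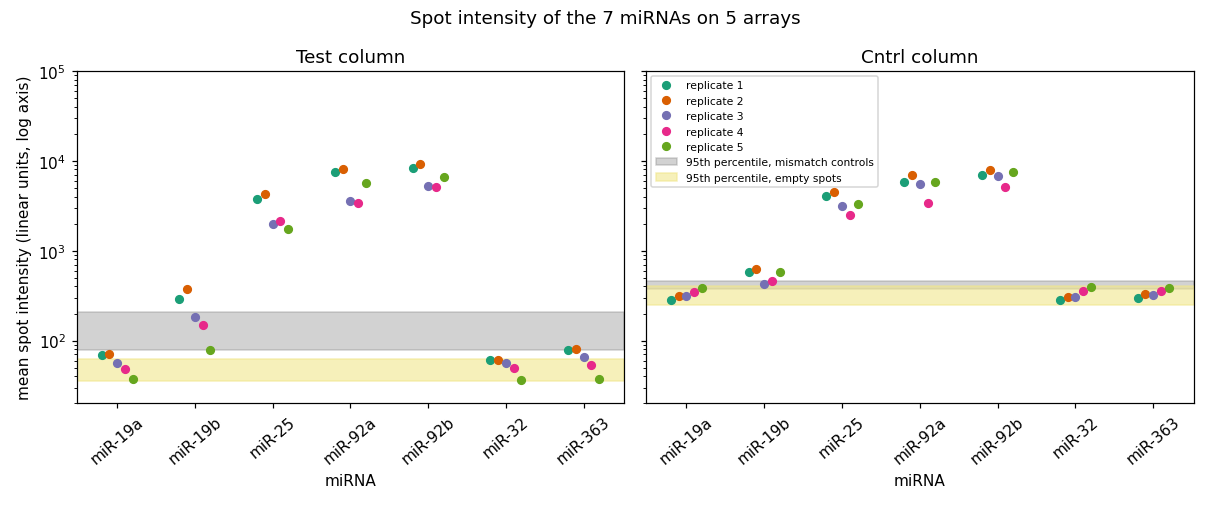
Mean spot intensity (linear units on a log axis) of each of the 7 miRNAs in the Test (left) and Cntrl (right) column, 1 point per array, coloured by replicate. Bands span the range over the 5 arrays of the 95th percentile of the mismatch controls (grey) and of the empty spots (yellow). MiR-25, miR-92a and miR-92b lie above both bands, and miR-19a, miR-32 and miR-363 lie within or next to the yellow band.

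No member differed between the columns after correction over all miRNAs. With p from limma adjusted by Benjamini-Hochberg across the 568 miRNAs, 0 of 7 members passed 0.05, against 0% of all tested, and 0 of 7 passed 0.10, against 1.58%. An unadjusted p below 0.05 was reached by 1 of 7 members, miR-32, against 19.4% of all. The mean ratio was positive for 4 members and negative for 3, where 51.6% of all tested miRNAs were positive and 48.4% negative. The members' median log2 ratio was 0.00086 and that of all tested 0.0029. A ratio of 1 direction on all 5 arrays was found for 1 of 7 members, again miR-32, against 19.7% of all tested. With the sign of replicate 3 turned, it was found for 2 of 7 members, miR-92a and miR-92b but not miR-32, against 19.5% of all tested. Since miR-92a and miR-92b were lower in Test on replicate 3 alone, their single direction follows from the turn and is no further evidence. An exact two-sided test by flipping the signs of 5 arrays could give no p under 0.062.

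MiR-92a had the largest mean difference of the 7 members. Its normalized log2 ratios were 0.42, 0.20, -0.26, 0.23 and 0.62 on replicates 1 to 5. It was therefore higher in Test on 4 arrays and lower on replicate 3. The mean was 0.25 ± 0.33 (SD, n = 5 arrays), or 1.19-fold, with a 95% interval of -0.07 to 0.56 and an adjusted p of 0.338 (limma). The mean was 0.37 without replicate 3 (adjusted p = 0.101) and 0.15 without replicate 5 (adjusted p = 0.518).

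MiR-92b, like miR-92a, was highest on replicate 5 and lowest on replicate 3, with a smaller mean difference. Its ratios were 0.31, 0.16, -0.10, 0.06 and 0.42 on replicates 1 to 5, again higher in Test on 4 arrays and lower on replicate 3. The mean was 0.17 ± 0.21 (SD, n = 5), or 1.12-fold, with an interval of -0.03 to 0.37 and an adjusted p of 0.310 (limma). It was 0.24 without replicate 3 (limma adjusted p = 0.130) and 0.11 without replicate 5 (limma adjusted p = 0.465).

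MiR-25, transcribed from another locus, stayed close to 0. Its ratios of 0.04, -0.02, -0.09, 0.09 and -0.02 gave a mean of 0.00086 ± 0.07 (SD, n = 5) and an adjusted p of 0.998 (limma). The interval of -0.08 to 0.08 corresponds to 0.944-fold to 1.06-fold, the narrowest among the 4 members above the mismatch controls. The sign of so small a mean turned with the offset, with loess on brighter probes, with the deposited values and without replicate 1 or 4.

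MiR-19b varied most. Its ratios were -0.10, 0.08, 0.48, 0.20 and -0.48 on replicates 1 to 5, with the highest value on replicate 3 and the lowest on replicate 5, where Test did not exceed the mismatch controls. The mean was 0.03 ± 0.36 (SD, n = 5), with an interval of -0.31 to 0.38 and an adjusted p of 0.929 (limma). It was 0.16 without replicate 5, -0.08 without replicate 3 and -0.16 with the sign of replicate 3 turned, so no direction is given.

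The dim members had small ratios. MiR-32 was at -0.13, -0.06, -0.04, -0.06 and -0.15, lower in Test on 5 of 5 arrays, with a mean of -0.09 ± 0.05 (SD, n = 5), an interval of -0.16 to -0.02 and an adjusted p of 0.217 (limma). MiR-19a had a mean of -0.04 ± 0.04 (adjusted p = 0.465 in limma, lower in Test on 4 of 5 arrays, and 0.00041 with the sign of replicate 3 turned). MiR-363 had a mean of -0.02 ± 0.04 (adjusted p = 0.618 in limma, lower on 3 of 5). MiR-367, which shares the miR-25/92 seed but is no member, was also no brighter than the mismatch controls, at -0.04 ± 0.04 (adjusted p = 0.396 in limma).

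**Figure D2:**
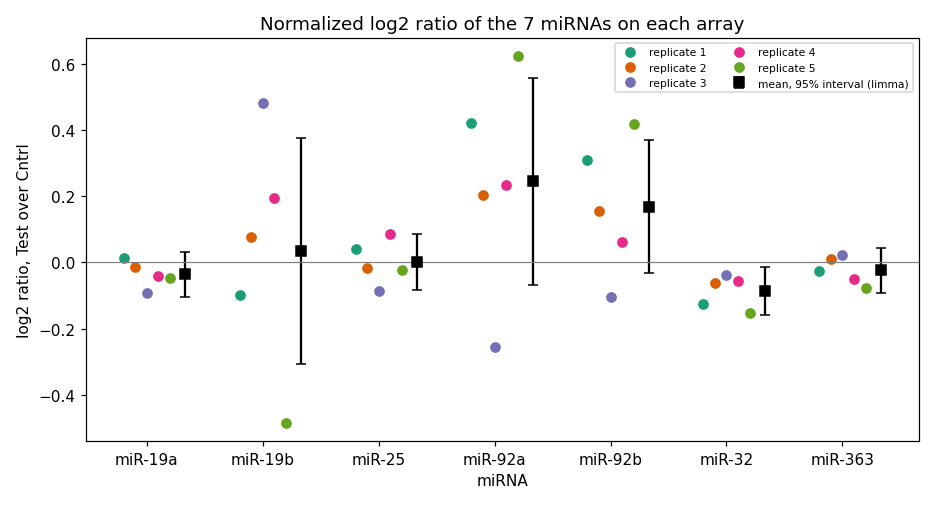
Normalized log2 ratio of Test over Cntrl for the 7 miRNAs, 1 coloured point per array, with the mean and 95% interval of the limma fit as black squares and bars. MiR-92a and miR-92b are lowest on replicate 3 and highest on replicate 5, miR-19b is highest on replicate 3 and lowest on replicate 5, and only the interval of miR-32, a dim miRNA, leaves out 0 before correction for multiple testing.

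For 3 members the spread between arrays was larger than that between single spots of 1 array. The ratio of an array is the mean of 6 spots, so its spot noise is smaller than the SD between single spots. For miR-92a the SD of the log2 ratio between the 6 spots ran from 0.066 to 0.11 on single arrays, against an SD of 0.33 between arrays. Its ratio in the upper and in the lower rows of an array, which hold 3 spots each, differed by at most 0.18. For miR-92b the spot SD was 0.059 to 0.12 against 0.21 between arrays, and for miR-19b it was 0.096 to 0.21 against 0.36. MiR-25 had like values for both, with a spot SD of 0.036 to 0.090 and an SD between arrays of 0.07. Since spots are averaged, this does not show that its arrays differed by no more than spot noise. In miR-19a, miR-32 and miR-363 the SD between arrays (0.04, 0.05 and 0.04) was below the median spot SD (0.13, 0.14 and 0.14).

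The spread of the brighter members was not unusual for the array. The median SD between arrays was 0.20 over the 318 miRNAs above the mismatch controls. Of these, 65 had a larger SD than miR-19b, 79 a larger one than miR-92a, 151 than miR-92b and 288 than miR-25.

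**Figure D3:**
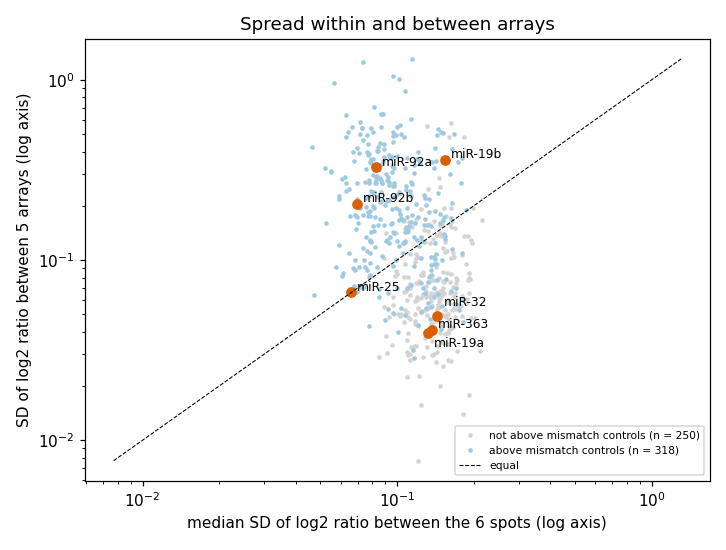
SD of the log2 ratio between the 5 arrays against the median SD between the 6 spots of a probe (both on log axes), 1 point per tested miRNA, grey where it did not exceed the mismatch controls and blue where it did, with the 7 miRNAs in orange and a dashed line of equality. MiR-92a, miR-92b and miR-19b lie above the line, miR-25 on it, and miR-19a, miR-32 and miR-363 below it. The horizontal axis is the SD of single spots, whereas the ratio of an array averages 6, so the line does not mark equal noise.

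Members were compared with each other by the root mean square (RMS) difference of their 5 log2 ratios, a description in which 0 means identical profiles. All profiles share the same arrays. MiR-92a and miR-92b, encoded on different chromosomes, differed by 0.15. By closeness among the 567 other miRNAs, miR-92b ranked 9th from miR-92a, and miR-92a ranked 27th from miR-92b. Their targets are the same at 19 of 21 compared bases, and whether their probes share signal was not tested. The median RMS difference of miR-92a to all others was 0.40. MiR-92a and miR-19b, which share both of their clusters, differed by 0.64, more than any other pair of members. Their ratios had opposite signs on replicates 1, 3 and 5 and were both positive on replicates 2 and 4. MiR-92a and miR-25, which share the seed, differed by 0.36. MiR-19a and miR-19b, which a single base separates, differed by 0.35. MiR-19a did not exceed the mismatch controls on any array and its ratios were small, so this value mainly restates the spread of miR-19b.

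The miRNAs closest to each member came from outside the families, whose members were only 7 of the 568 miRNAs tested. Those closest to miR-92a were miR-150 (0.10), a lymphocyte miRNA, and let-7d* (0.12), a passenger strand of let-7. Those closest to miR-92b were miR-361 (0.041) and miR-379 (0.063), and those closest to miR-19b were miR-411 (0.079) and miR-194 (0.10). The nearest to miR-25 were miR-293 (0.029) and miR-292-5p (0.030), both dim probes that did not exceed the mismatch controls on any array. For the dim members they were miR-136 and miR-717 (miR-19a), miR-654-5p and miR-654-3p (miR-363), and miR-374* and miR-297c (miR-32), at 0.011 to 0.026.

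Markers of other cell types that a dissected hippocampus can hold also varied by array. Of 5 leukocyte and microglial miRNAs, 2 lay above the mismatch controls (miR-150 and miR-146a) and miR-223, miR-142-3p and miR-142-5p did not. Their summed intensity was 12073 to 19239 in Test and 11955 to 17260 in Cntrl, and their median ratio was 0.31, 0.12, -0.06, 0.01 and 0.25 on replicates 1 to 5, lowest on replicate 3 as for miR-92a. MiR-150 alone was at 0.39, 0.12, -0.06, 0.31 and 0.65. Both endothelial markers, miR-126-3p and miR-126-5p, lay above the mismatch controls, with sums of 18687 to 25596 in Test and 18744 to 23916 in Cntrl. Their median ratio of 0.47, 0.35, -0.01, 0.07 and 0.34 was likewise lowest on replicate 3. MiR-126-3p, by far the brighter, was only at 0.12, 0.05, 0.02, 0.02 and 0.17. MiR-126-5p, which exceeded the mismatch controls on 3 arrays in Test and 2 in Cntrl, was at 0.82, 0.66, -0.05, 0.11 and 0.51.

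The 4 striated muscle miRNAs lay above the mismatch controls, with sums of 438 to 1573 in Test and 1679 to 2554 in Cntrl. Their median ratios were 0.04, -0.34, -0.19, 0.03 and 0.26, and miR-1 alone ran from -1.04 on replicate 3 to 2.26 on replicate 5. Of the 3 red blood cell miRNAs, 2 exceeded the mismatch controls and miR-144 did not. They had sums of 3198 to 14170 in Test and 4491 to 9840 in Cntrl. Their median ratios were -0.14, 0.30, -0.08, -0.05 and 0.07, on replicates 3 to 5 the value of dim miR-144. MiR-451 alone was at -0.14, 1.25, 0.74, 0.58 and -0.32. MiR-486 was at -0.18, 0.30, -0.35, -0.09 and 0.55. Oligodendrocyte markers (miR-338-3p above the mismatch controls, miR-219 not) had sums of 1150 to 5197 in Test and 1979 to 5807 in Cntrl. Their median ratios were 0.05, -0.26, 0.32, 0.19 and -0.41, and miR-338-3p alone was at 0.20, -0.08, 0.66, 0.42 and -0.67. Choroid plexus markers (miR-204 above, miR-211 not) had sums of 24991 to 33025 in Test and 17406 to 30039 in Cntrl. Their median ratios were 0.00, 0.16, 0.06, 0.15 and 0.70, and miR-204 alone was at -0.11, 0.09, 0.13, 0.21 and 1.15. All these sums still hold the level of the empty spots, so they do not show how much of a cell type was present. The part of these cell types in the ratios of miR-92a, miR-92b and miR-19b was not tested.

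The G and C share of the target had a weak relation to the ratio on single arrays. Its r lay between -0.38 and -0.03 over the 318 brighter miRNAs and between -0.29 and 0.07 over all 568 tested. The linear effect of this share and of target length was fitted within each array over all 568, not over the brighter miRNAs alone. With this effect taken out, the ratios of miR-92a were 0.41, 0.25, -0.23, 0.24 and 0.61. Their SD between arrays was then 0.31. MiR-19b kept an SD of 0.34 and miR-92b one of 0.18.

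The cluster partners give the rest of these transcripts. Of 16 partners on the array, guide and passenger strands that are no members, 0 passed the adjusted threshold in limma (0% of all tested) and 2 had an unadjusted p below 0.05 (19.4% of all tested). Their means were positive for 7 and negative for 9, with a median of -0.0098. In mir-17-92, 3 of 8 partners were positive, in mir-106a-363 3 of 4, and in mir-106b-25 1 of 4. The smallest p belonged to miR-20b of mir-106a-363, at 0.16, 0.30, 0.18, 0.20 and 0.07, higher in Test on 5 of 5 arrays (mean 0.18 ± 0.08, limma adjusted p = 0.135). MiR-93, next to miR-25 in the same cluster, was at -0.29, -0.35, 0.00, -0.14 and -0.51 (mean -0.26 ± 0.20, limma adjusted p = 0.198), whereas every ratio of miR-25 lay within 0.09 of 0.

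MiR-18a, a mir-17-92 miRNA that exceeded the mismatch controls on 1 array in Cntrl and on 0 in Test, had a mean of -0.11 ± 0.11 (limma adjusted p = 0.269). Its X-linked paralog miR-18b, never above them, had a mean of -0.05 ± 0.06 (limma adjusted p = 0.396). The starred strands miR-19a* and miR-92a*, from the same hairpins as members, were at -0.01 ± 0.05 and -0.0053 ± 0.03, both no brighter than the mismatch controls.

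The authors' deposited value table gives 1 processed value per array and miRNA. Over the 318 brighter miRNAs these values ran with the Test over Cntrl ratio on every array (r from 0.965 to 0.985, slope 1.10 to 1.18), which places them on a log2 scale in the same direction. Their background step, centring (array medians from -0.05 to -0.02) and genotype direction are not given. In the authors' deposited table miR-92a stood at 0.42, 0.19, -0.28, 0.21 and 0.62, and miR-92b at 0.28, 0.12, -0.14, 0.05 and 0.41. Both sets lie close to the ratios above. The authors' deposited table spreads wider for miR-32, a dim miRNA, and for miR-19b, which lay above the mismatch controls but closer to background. MiR-32 stood there at -0.59, 0.00, -0.04, -0.25 and -0.93, and miR-19b at -0.22, 0.10, 0.70, 0.23 and -0.91. Fitted in the same way in limma, 0 of 7 members passed (smallest adjusted p = 0.320).

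The number of members called depended on the normalization within arrays. With each array centred on its median in place of loess, 6 of 7 members passed in limma, as did 248 of all 568 miRNAs tested. MiR-92a was then at 0.78 (adjusted p = 0.0037), miR-92b at 0.75 (adjusted p = 0.0019) and miR-25 at 0.43 (adjusted p = 0.011), while the dim miR-32, miR-363 and miR-19a were at -0.25, -0.18 and -0.18 (adjusted p = 0.012, 0.024 and 0.032). In that setting ratios rose with intensity on every array (r from 0.51 to 0.90 over all tested miRNAs, against -0.01 to 0.05 after loess). The 3 bright members of the miR-25/92 family were then positive and its 2 dim members negative.

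**Figure D4:**
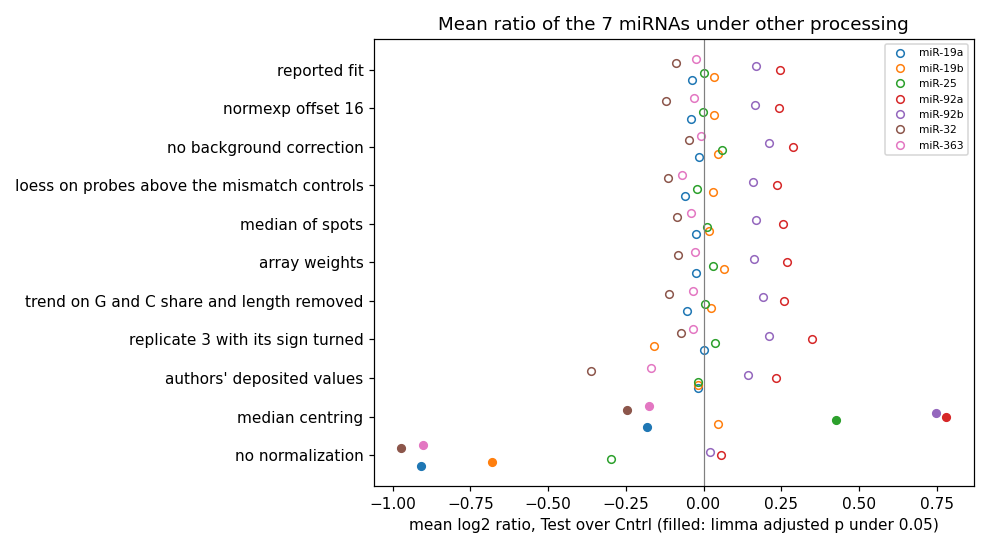
Mean log2 ratio of Test over Cntrl for each of the 7 miRNAs (colours) in the reported fit and under 10 other ways of processing, with filled circles where limma's adjusted p was under 0.05. MiR-92a and miR-92b are positive in all 11 settings drawn, and filled circles appear only with median centring and with no normalization.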

How the data were processed

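Per the file headers, the deposited tables hold the mean foreground intensity of each of 3968 spots per array in a Test and a Cntrl column, with background columns at 0 throughout. The sources used here do not give scanner settings or the authors' normalization. The deposited value table was read as log2 ratios after comparison with the intensities. Intensities were corrected by normexp (offset 50), normalized by loess within arrays with the 554 control spots at weight 0, and averaged over 6 spots. Limma 3.58.1 (R 4.3.3) fitted the mean of 5 log2 ratios, with eBayes, two-sided, adjusted by Benjamini-Hochberg over 568 miRNAs at 0.05. Each array joins 2 mice, so the ratio carries the pairing, and p-values cover the spread between pairs. Empty spots numbered 266 and mismatch controls 136. Sequences were matched to RefSeq by name and sequence, for all 7 members. The fit was tested on simulated data with noise drawn independently for each miRNA. It was not tested with noise shared by the miRNAs of an array. Members, marker and partner lists were chosen with earlier results of these data known. Named were all members, up to 4 partners with the smallest p, the 2 nearest profiles per member and the markers. MiR-367 and the starred strands of member hairpins were added after their values were seen. Alternatives covered background, normalization, filters, spot summary, variance model, array weights, pairing, single arrays, the deposited values and the threshold. The turned sign of replicate 3 and the G and C trend were chosen after seeing the data. Figures were drawn with matplotlib 3.10.9.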

Additional observations from a re-analysis of the deposited data

How the results depend on the processing

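The count of members past the threshold stayed at 0 in limma except with median centring (6) and no normalization (4), where the median of all miRNAs was at -0.77. The count over all miRNAs was 248 with median centring, 442 with no normalization, 21 with array weights, 2 with a normexp offset of 16, with the deposited values and with the G and C trend removed, 1 without the replicate block, 9 at a threshold of 0.10, and 0 to 5 leaving out each array, the 5 being without replicate 3. MiR-19b turned to -0.018 with the deposited values, to -0.68 with no normalization and to -0.16 with replicate 3 turned, and ran from -0.077 to 0.16 leaving out each array. MiR-25 turned to -0.0027 with offset 16, to -0.019 with the deposited values, to -0.021 with loess fitted to brighter probes alone, and to -0.30 with no normalization, and ran from -0.021 to 0.023 leaving out each array. MiR-19a turned to 0.00041 with replicate 3 turned. MiR-92a, miR-92b, miR-32 and miR-363 kept their sign in every alternative run. The cause of these changes was not tested. The dim members dropped out of the stricter filters. Signal over background limits miR-19a, miR-32 and miR-363, and the number of arrays limits all members.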
